A study of Mus musculus with 17 samples.

Results

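Genes that store iron, carry it out of cells or release it from haem were followed across the cell types of the mouse posterior brain: Fth1, Ftl1, Slc40a1, Cp, Heph and Hmox1. They were chosen by name and make up 6 of the 26131 genes in the deposited count matrix. The measurements were single-nucleus RNA counts from 17 female mice, 2.3 months old, homozygous for a knock-in of the human transferrin receptor (TfR). TfR is the receptor through which cells take up transferrin-bound iron, and both conjugates studied here bind it. All groups, controls included, carry the knock-in. Each mouse received 4 weekly intravenous doses, and the brain was collected 72 hours after the final one. The groups were saline (n = 4), a free antisense oligonucleotide against the nuclear noncoding RNA Malat1 (Malat1 ASO, 2 mg per kg, n = 4), an antibody against TfR joined to such an oligonucleotide (anti-TfR:Malat1, 50 mg per kg, n = 6), and an oligonucleotide transport vehicle that binds TfR (OTV:Malat1, 50 mg per kg, n = 3). The question for these genes is whether RNA for iron storage and export differed between animals given a TfR-binding conjugate and controls, and in which cells.

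Ferritin is a hollow protein shell in which iron is kept as a mineral. Fth1 encodes its heavy subunit, which oxidises iron as it enters, and Ftl1 its light subunit, which helps the mineral form. Slc40a1 encodes ferroportin, the only known iron exporter of mammalian cells. Ceruloplasmin (Cp) and hephaestin (Heph) are copper-containing ferroxidases that oxidise iron as it leaves, so that transferrin can bind it. Hmox1 encodes the inducible haem oxygenase, which opens haem and frees its iron. In the brain, oligodendrocytes are known as iron-rich cells, and iron enters across the endothelium of the blood vessels.

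Ferritin and ferroportin share a hairpin in the 5′ untranslated region of their RNA, the iron-responsive element. Iron regulatory proteins hold it when iron is scarce and block translation, so that the protein can change while the RNA does not. The element was searched in the 5′ untranslated regions of GENCODE M21 (GRCm38) as a cytosine, 5 bases, the loop CAGTGN and 5 bases that pair with the first 5, with G to T pairs allowed. It was found in 31 of 20580 genes (0.151%), 3 of them among the 6 studied here. The 30-base windows are printed because they are what these 3 members share in sequence, with the loop in capitals, read 5′ to 3′ on the gene's own strand.
Fth1: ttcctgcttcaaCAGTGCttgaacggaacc
Ftl1: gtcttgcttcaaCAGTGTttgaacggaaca
Slc40a1: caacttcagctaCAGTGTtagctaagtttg
The Fth1 window lies at chr19:9982732-9982761 on the plus strand, and its loop begins at base 99 of the 224-base 5′ untranslated region of Fth1-201. The Ftl1 window lies at chr7:45459778-45459807 on the minus strand, with the loop at base 90 of 253 in Ftl1-201. The Slc40a1 window lies at chr1:45925464-45925493 on the minus strand, with the loop at base 102 of 319 in Slc40a1-201. The same search found the element in none of Cp, Heph and Hmox1. A match is a description of these letters and not a measured binding site.

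The genes themselves lie at chr19:9980598-9985098 (Fth1, plus strand), chr7:45457944-45459884 (Ftl1, minus), chr1:45908068-45926523 (Slc40a1, minus), chr3:19957054-20009145 (Cp, plus), chrX:96455359-96574485 (Heph, plus) and chr8:75093621-75100589 (Hmox1, plus). The matrix held 207741 UMIs of Fth1, 23878 of Ftl1, 12760 of Cp, 3417 of Slc40a1, 635 of Heph and 408 of Hmox1. A UMI is 1 counted RNA molecule. Cp overlaps Hps3 and Heph overlaps Hsf3, each on the opposite strand, and the strand setting of the counting is not given in the sources used here. Heph also overlaps the processed pseudogenes Rpl17-ps8 and Gm14935 on its own strand. Ftl1 overlaps Gm22133 on its own strand and Gm10252 on the opposite one. A processed copy, Ftl1-ps1, has its own row with 6224 UMIs, so reads may have been split between it and Ftl1.

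The matrix held 284074 nuclei, with 13841 to 18365 nuclei and 55393588 to 79866411 UMIs per animal. The deposited cell type labels were used: 193268 neurons, 75282 oligodendrocytes, 8444 microglia, 4972 astrocytes, 1226 vascular cells and 657 perivascular macrophages. A further 225 nuclei were labelled glia, with 20 or more in 5 animals, and were not tested. The labels were checked by markers: Mbp was at 4302 CPM (a gene's UMIs in a cell type scaled to a common total) in oligodendrocytes, Csf1r at 762 CPM in microglia, Mrc1 at 2778 CPM in perivascular macrophages, Aqp4 at 155 CPM in astrocytes and Flt1 at 1057 CPM in vascular cells. The neuronal gene Snap25 was at 917 CPM in neurons and still at 171 to 250.5 CPM in oligodendrocytes and perivascular macrophages. The parts of free RNA and of doublets in this were not tested. The targeted gene Malat1 was lower with OTV:Malat1 than with saline by a log2 fold change of -2.79 in oligodendrocytes (edgeR adjusted p = 8.74e-08) and -1.65 in astrocytes (edgeR adjusted p = 5.79e-07). Over all 17 animals Malat1 spanned 14967 to 119623.8 CPM in oligodendrocytes, and a narrower 67682.5 to 117737.8 CPM in vascular cells. One animal, OTV:Malat1 replicate 2, had the highest Fth1 in each cell type tested. Its ribosomal protein RNA was the highest in neurons, oligodendrocytes, astrocytes and microglia only. Results that rest on this animal are given with and without it. Some 10044 of 273792 barcodes occurred in 2 or more libraries. An average pair of libraries shared 77. Replicates are separate animals by the labels, and the deposited batch, numbered 1 to 4, has no stated meaning. Animals of different groups deviated together within a batch, with a median r of 0.304 in neurons and 0.335 in oligodendrocytes, against -0.0847 and -0.113 across batches. The fits given here have no batch term. With batch as a block, edgeR called 0 of the 6 genes in each comparison, and vascular Cp was -0.66 with Malat1 ASO, -0.40 with anti-TfR:Malat1 and -0.63 with OTV:Malat1 in log2 against saline.

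Fth1 was spread over every cell type and lowest in neurons. Its level was 619 ± 195 CPM in oligodendrocytes, 609 ± 277 CPM in vascular cells, 580 ± 182 CPM in perivascular macrophages, 494 ± 173 CPM in microglia, 339 ± 113 CPM in astrocytes and 134 ± 47.8 CPM in neurons (SD, n = 17 animals). Neighbours among the first 4 cell types did not separate: oligodendrocytes exceeded vascular cells in 9 of 17 animals, vascular cells exceeded perivascular macrophages in 7, and perivascular macrophages exceeded microglia in 12. Cell types farther apart in this order were not compared within animals. Microglia exceeded astrocytes in 17 of 17 animals, and astrocytes exceeded neurons in 17 of 17. A nucleus with at least 1 Fth1 UMI was common even where the level was low, at 45.95% of neurons (median 4614 UMIs per nucleus) and 54.58% of oligodendrocytes (median 1279 UMIs). Among oligodendrocyte-labelled nuclei, Fth1 was 805 ± 291 CPM in deposited cluster 2, 611 ± 204 CPM in cluster 0 and 462 ± 149 CPM in cluster 15 (SD, n = 17). The 5818 neuron-labelled nuclei of cluster 2 had 751 ± 308 CPM of Fth1 beside 3202 CPM of Mbp and 372 CPM of Snap25. Restricting neurons to nuclei with the commonest label of their cluster, and leaving out cluster 13, gave 127 CPM of Fth1.

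Ftl1 was highest in vascular cells. It was at 166 ± 70.7 CPM there, 123 ± 61.6 CPM in perivascular macrophages, 67.8 ± 23.1 CPM in microglia, 53.0 ± 19.8 CPM in oligodendrocytes, 43.5 ± 17.9 CPM in astrocytes and 17.1 ± 5.91 CPM in neurons (SD, n = 17). The order of neighbouring cell types held in 13, 15, 14, 14 and 17 of 17 animals, so only the step from astrocytes to neurons held in each. One vascular nucleus held 48 UMIs of Fth1 and 1 held 17 UMIs of Ftl1.

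Among the deposited labels, Slc40a1 was highest in the brain's macrophages, and within the vascular label it was high in endothelial-led nuclei, as given with their division. The exporter was at 170 ± 74.7 CPM in perivascular macrophages and 136 ± 21.5 CPM in microglia, which did not separate (higher in perivascular macrophages in 9 of 17 animals). Vascular cells followed at 52.6 ± 36.0 CPM, below microglia in 17 of 17 animals. Astrocytes had 4.96 ± 3.51 CPM, neurons 1.89 ± 0.357 CPM and oligodendrocytes 0.879 ± 0.421 CPM (SD, n = 17). At least 1 Slc40a1 UMI was seen in 1098 of 8444 microglia (median 1004 UMIs) and 100 of 657 perivascular macrophages (median 960 UMIs), against 85 of 75282 oligodendrocytes (median 1279 UMIs). Of the 90 Slc40a1 UMIs in oligodendrocyte-labelled nuclei, 61.1% came from cluster 18, which held 0.63% of those nuclei and in which 75.7% of them were called doublets by the authors. The 1284 neuron-labelled nuclei of cluster 11 had 68.1 CPM of Slc40a1 beside 418 CPM of Csf1r.

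Cp was led by vascular cells and perivascular macrophages. It was at 577 ± 150 CPM in vascular cells and 379 ± 128 CPM in perivascular macrophages, higher in the former in 15 of 17 animals. Microglia had 47.3 ± 10.98 CPM, oligodendrocytes 15.2 ± 2.19 CPM, neurons 9.62 ± 1.02 CPM and astrocytes 9.22 ± 4.65 CPM (SD, n = 17). The steps down to neurons held in 17 of 17 animals each, while neurons exceeded astrocytes in 9. A Cp UMI was found in 40.78% of vascular nuclei and 28.92% of perivascular macrophages, and in 1.63% of astrocytes, at median depths of 1100, 960 and 1800 UMIs. Cluster 13, of which 7336 nuclei were labelled neurons, carried 610 CPM of Pdgfra, a gene of oligodendrocyte precursors, and 133 ± 16.4 CPM of Cp. These nuclei were 3.796% of the neuron-labelled nuclei and held 22.4% of their Cp UMIs. Neurons with the commonest label of their cluster, with cluster 13 itself left out, had 7.44 CPM of Cp.

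Heph, the other ferroxidase, was the one member led by astrocytes. It was at 44.1 ± 13.4 CPM in astrocytes and 19.9 ± 18.5 CPM in vascular cells, higher in astrocytes in 15 of 17 animals. It was at 2.55 CPM in perivascular macrophages on 2 UMIs, at 0.183 ± 0.0430 CPM in neurons, at 0.136 CPM in microglia on 1 UMI and at 0.130 CPM in oligodendrocytes on 14 UMIs. A Heph UMI was seen in 7.30% of astrocytes against 0.0186% of oligodendrocytes. Cp and Heph thus had different leading cell types in these nuclei.

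Hmox1 was barely detected. Its 408 UMIs lay mostly in neurons, the most numerous nuclei, at 0.338 ± 0.123 CPM (SD, n = 17). The highest mean, 8.49 ± 12.2 CPM in perivascular macrophages, rested on 6 UMIs with 11 of 17 animals at 0. Vascular nuclei held 0 of 1629024 UMIs, which allows up to 1.84 CPM if 3 UMIs are taken as the limit of a count of 0. That limit covers counting error only, as do all intervals given for counts.

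**Figure D1:**
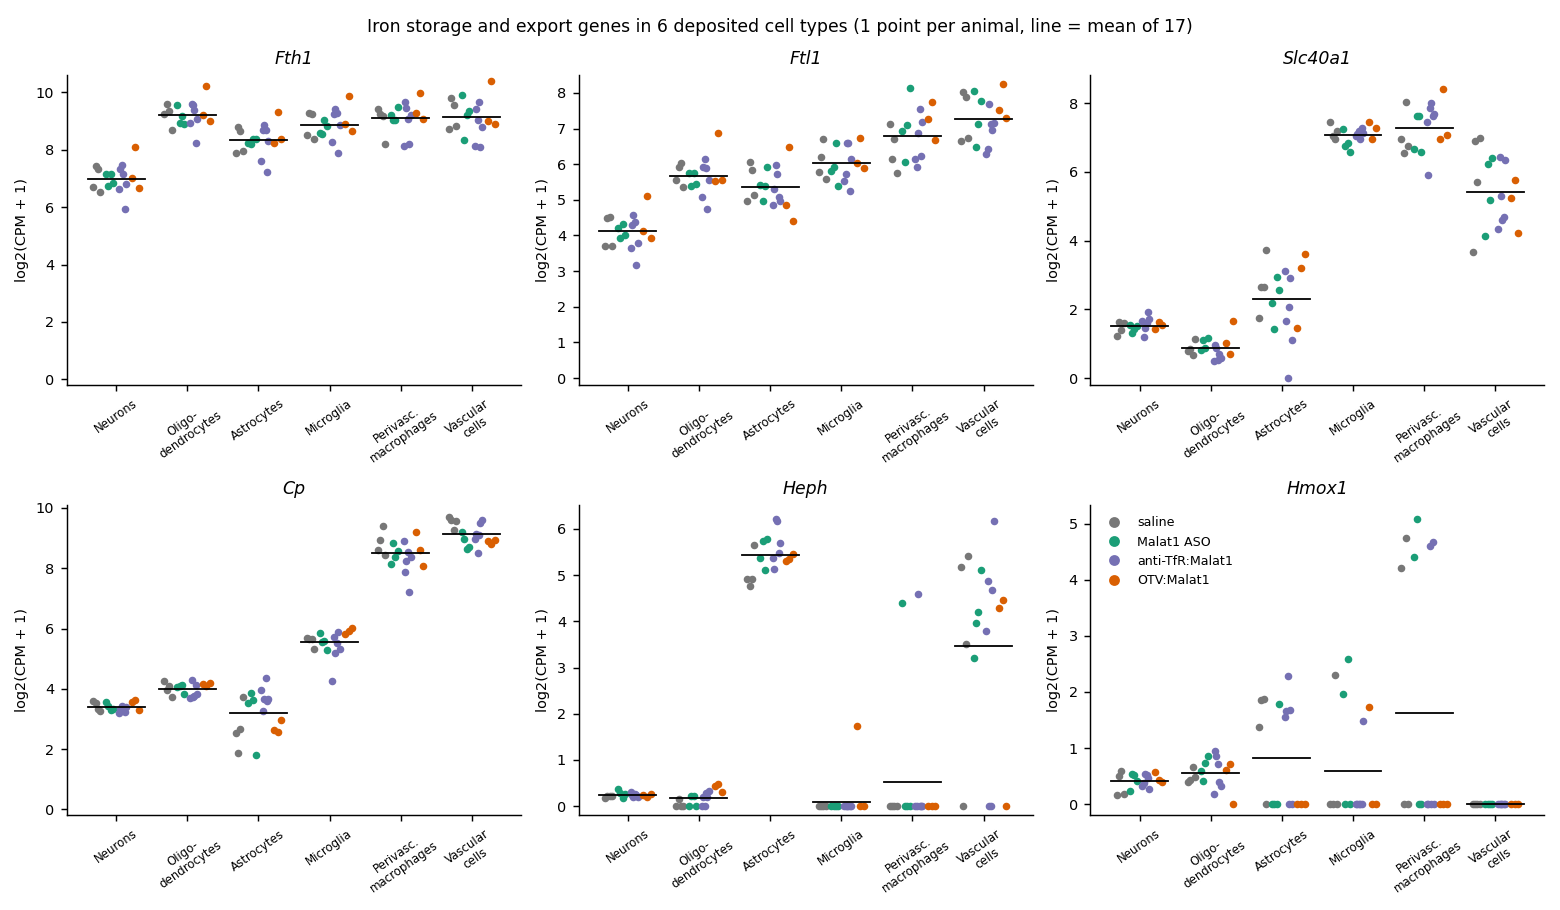
Level of each of the 6 genes as log2(CPM + 1) by deposited cell type, 1 point per animal coloured by group, with a line at the mean of 17 animals. Fth1 is lowest in neurons, Slc40a1 stands highest in perivascular macrophages and microglia among these labels, Cp in vascular cells and perivascular macrophages, and Heph in astrocytes, with the 4 groups intermixed in most columns.

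The vascular label joins endothelial cells, the mural cells around them and fibroblast-like cells of the vessel wall and meninges. The nuclei were therefore divided by which of 3 marker lists led in each nucleus. The 193 nuclei led by endothelial markers had 231 CPM of Slc40a1 (95% Poisson interval 181 to 291), against 2.57 CPM in the 375 led by mural markers (1 UMI) and 8.26 CPM in the 591 led by fibroblast-like markers (7 UMIs). Ftl1 was also highest in the endothelial-led nuclei, at 366 CPM against 139 and 104 CPM. Fth1 was 845 CPM there, against 618 CPM in mural-led and 515 CPM in fibroblast-like-led nuclei. Cp was lowest in endothelial-led nuclei, at 263 CPM over all animals, against 508 CPM in mural-led and 701 CPM (646 to 760) in fibroblast-like-led nuclei. The step from mural-led to fibroblast-like-led nuclei differed between groups in size, which was not tested: Cp was 560 CPM in mural-led and 1017 CPM in fibroblast-like-led nuclei of saline animals, and 503 and 502 CPM with Malat1 ASO. Heph was 3.21, 10.3 and 33.1 CPM in the same order. A remaining 67 nuclei had no single leading list, and their Cp was the highest of the 4 kinds, at 1177 CPM (952 to 1438, on 95 UMIs). They made up 7.27% of vascular nuclei with saline, 2.90% with Malat1 ASO, 5.54% with anti-TfR:Malat1 and 5.74% with OTV:Malat1. These sums pool 17 animals, and the intervals cover counting error only.

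Across treatments, none of the 6 genes passed the test in any cell type. The test was edgeR's quasi-likelihood test on UMI sums per animal and cell type, with p adjusted by the Benjamini-Hochberg method over all genes and a threshold of 0.05. A gene had to pass edgeR's filter on low counts, which left 22 gene and cell type pairs: all 6 genes in neurons, 4 in microglia, and 3 each in oligodendrocytes, astrocytes, perivascular macrophages and vascular cells. The counts called were 0 of 22 for Malat1 ASO, 0 of 22 for anti-TfR:Malat1 and 0 of 22 for OTV:Malat1, each against saline, and 0 of 22 for OTV:Malat1 against anti-TfR:Malat1. Over all 57700 gene and cell type pairs, with Malat1 counted apart, the share called was 0.00347% for OTV:Malat1 against saline and 0% in each of the other comparisons. In the former, 2 genes were called, both lower in oligodendrocytes. An unadjusted edgeR p under 0.05 was found for 1.53%, 2.03%, 2.67% and 3.02% of all 57700 pairs in the 4 comparisons. Among the 22 pairs of these 6 genes, 1, 2, 1 and 1 had such a p. They were Cp in vascular cells with Malat1 ASO and with OTV:Malat1, Cp in perivascular macrophages and Heph in astrocytes with anti-TfR:Malat1, and Ftl1 in vascular cells for OTV:Malat1 against anti-TfR:Malat1. DESeq2 and the other alternatives also called none of the 6. The comparisons with saline share the same 4 saline animals, and OTV:Malat1 against anti-TfR:Malat1 uses the same conjugate animals again.

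The direction of the fitted changes differed between comparisons. The fitted log2 fold change was above 0 in 7 of 22 pairs with Malat1 ASO, 5 with anti-TfR:Malat1, 19 with OTV:Malat1 and 18 for OTV:Malat1 against anti-TfR:Malat1. The medians were -0.03, -0.08, 0.20 and 0.28, beside medians of -0.003, -0.002, 0.004 and 0.010 over all pairs tested. The 2 counts with OTV:Malat1 rest on its replicate 2. Without that animal, 7 of 22 pairs were above 0 against saline and 10 of 22 against anti-TfR:Malat1, with medians of -0.13 and -0.06. Pairs from one gene share animals and are not independent. Standard errors ran from 0.088 to 0.50, and the interval of 2 standard errors left out 0 for the pairs named above and for vascular Cp with anti-TfR:Malat1.

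**Figure D2:**
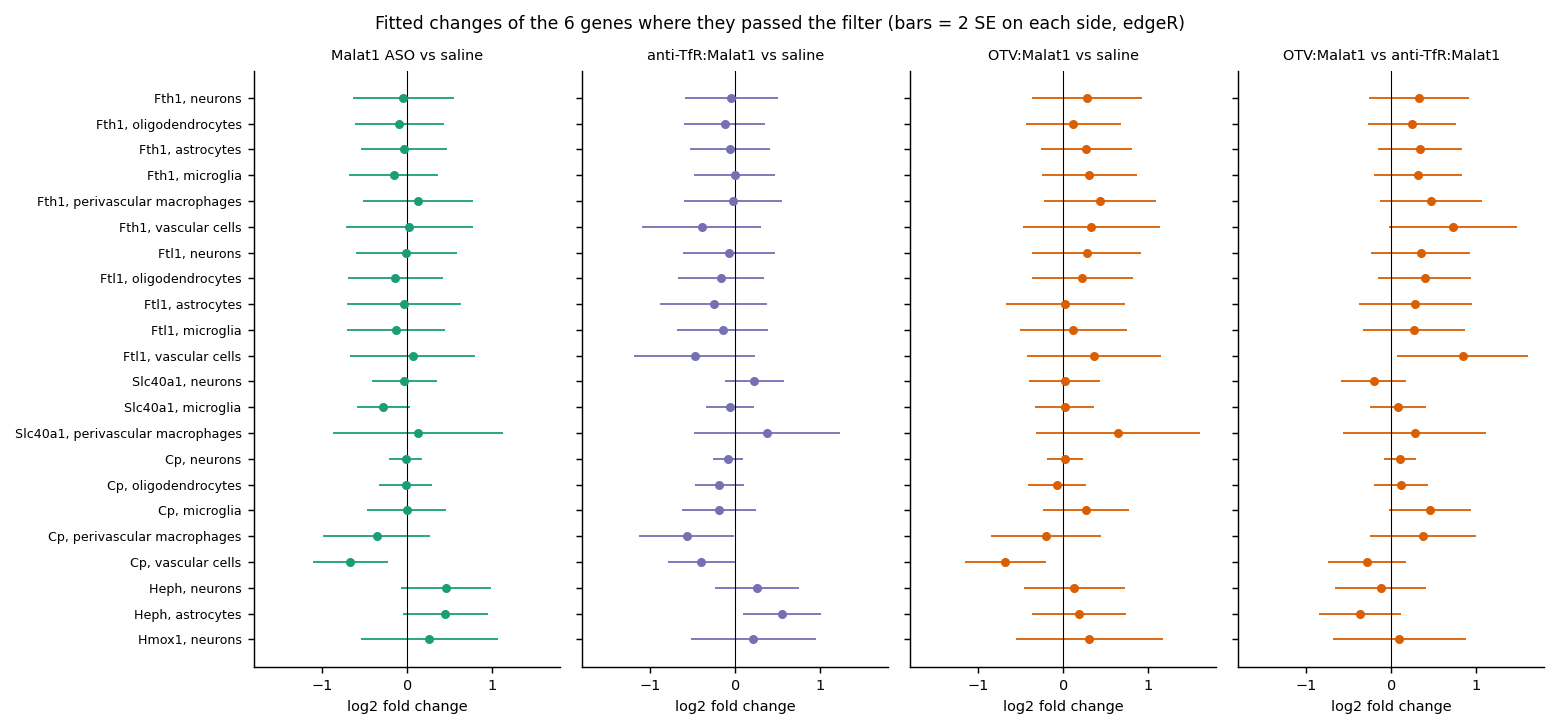
Fitted log2 fold changes (edgeR) of the 22 gene and cell type pairs that passed the filter, in 4 comparisons, with bars of 2 standard errors on each side. Cp in vascular cells lies to the left of 0 in each comparison, and nearly all other bars cross 0.

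In oligodendrocytes, Fth1 was at 610, 771, 649 and 414 CPM in the saline animals and at 759, 487, 571 and 479 CPM with Malat1 ASO. It ran from 301 through a median of 602 to 762 CPM with anti-TfR:Malat1, and was 585, 1174 and 514 CPM with OTV:Malat1. The groups overlapped, and 1 animal with OTV:Malat1 lay above all others. Against saline, the log2 fold change was -0.09 (SE 0.26) with Malat1 ASO, -0.12 (SE 0.24) with anti-TfR:Malat1 and 0.12 (SE 0.28) with OTV:Malat1, with edgeR adjusted p of 1.00, 1.00 and 0.977. With OTV:Malat1, an interval of 2 standard errors ran from -0.44 to 0.68. Without OTV:Malat1 replicate 2 the change was -0.30. Within batches 2, 3 and 4, the single OTV:Malat1 animal differed from the single saline animal by -0.52, 0.71 and 0.22 in log2 CPM with Malat1 left out of the totals, as for all within-batch differences given here.

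The same animal turned the direction of Fth1 in other cell types. With OTV:Malat1 against saline, the log2 fold change of Fth1 was 0.28 in neurons, 0.27 in astrocytes, 0.30 in microglia and 0.33 in vascular cells with replicate 2, and -0.21, -0.12, -0.16 and -0.36 without it. In perivascular macrophages it was 0.44 with that animal and 0.03 without. Neuronal Fth1 was 103, 170, 160 and 90.1 CPM in the saline animals, and 127, 274 and 102 CPM with OTV:Malat1. None of these changes passed the edgeR test.

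Ftl1 turned with the same animal in 4 cell types but not in vascular cells. With OTV:Malat1 against saline, its log2 fold change was 0.27 in neurons, 0.22 in oligodendrocytes, 0.12 in microglia and 0.025 in astrocytes with replicate 2, and -0.14, -0.33, -0.21 and -0.88 without it. In vascular cells it was 0.36 with that animal and 0.000156 without. None passed the edgeR test. In oligodendrocytes its group means were 52.4 ± 11.2 CPM with saline (SD, n = 4), 47.4 ± 6.38 CPM with Malat1 ASO (n = 4), 48.9 ± 17.3 CPM with anti-TfR:Malat1 (n = 6) and 69.3 ± 40.5 CPM with OTV:Malat1 (n = 3). In vascular cells Ftl1 was 184, 306 and 158 CPM with OTV:Malat1 and ran from 77.2 through a median of 131 to 205 CPM with anti-TfR:Malat1. The log2 fold change between them was 0.84 (SE 0.38, edgeR adjusted p = 0.999), and 0.49 without OTV:Malat1 replicate 2. Vascular sums held 58 and 66 UMIs of Ftl1 in these groups.

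Ferritin RNA varied together across cell types. Fth1 was highest in OTV:Malat1 replicate 2 in each of the 6 cell types and lowest in anti-TfR:Malat1 replicate 5 in 5 of them. The highest animal exceeded the lowest 4.58-fold in neurons, 3.90-fold in oligodendrocytes and 3.99-fold in microglia. Cp differed 1.39-fold between the highest and lowest animal in neurons, and Slc40a1 1.84-fold in microglia. Where fewer UMIs were counted, other members spread as widely or more widely than Fth1: Slc40a1 differed 10.8-fold in vascular cells and 5.73-fold in perivascular macrophages, against 4.92-fold and 3.54-fold for Fth1. The sum of 78 ribosomal protein genes had the same highest and lowest animals in neurons, oligodendrocytes and microglia, with ranges of 2.35-fold, 2.79-fold and 2.49-fold, and also in astrocytes. In perivascular macrophages this sum was highest in anti-TfR:Malat1 replicate 3. In vascular cells it was highest in saline replicate 2 and lowest in Malat1 ASO replicate 2.

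The relation of ferritin to ribosomal protein RNA was measured over the 17 animals in log2 CPM with Malat1 left out of the totals. Pearson's r between Fth1 and the ribosomal protein sum was 0.980 in neurons (Spearman's rho 0.956), 0.905 in oligodendrocytes (rho 0.868) and 0.968 in microglia (rho 0.956). Each of these 3 values of r had a permutation p of 1e-05, the smallest that 100000 permutations can give, and an adjusted p of 2.89e-05 over 26 relations computed. The adjusted permutation p of each rho was at most 5.78e-05. Without the 2 animals farthest from the median on the Fth1 axis, r was 0.957, 0.793 and 0.937. With the means of the deposited batches subtracted, r was 0.959, 0.960 and 0.936. For Ftl1, r with the ribosomal protein sum was 0.947 in neurons, 0.965 in oligodendrocytes and 0.758 in microglia, the last being 0.420 once batch means were subtracted. The Ftl1 values had adjusted permutation p of 2.89e-05, 2.89e-05 and 0.000845, and rho of 0.887, 0.961 and 0.723.

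The relation with the ribosomal protein sum was also computed for Cp in these cell types and for Slc40a1 in microglia. Each r was lower than those of ferritin before batch means were subtracted. Heph and Hmox1 were not included. For Cp, r was 0.594 in neurons (rho 0.581, adjusted permutation p = 0.0222), 0.013 in oligodendrocytes (rho 0.091, adjusted p = 0.959) and 0.188 in microglia (rho 0.0074, adjusted p = 0.564). Once batch means were subtracted, r for Cp was 0.568, -0.064 and 0.0965, the first of these above the 0.420 of Ftl1 in microglia. For Slc40a1 in microglia r was -0.163 (rho -0.265, adjusted permutation p = 0.601). Between Fth1 and the 13 mitochondrial genes, r was 0.073 in neurons, 0.183 in oligodendrocytes and 0.216 in microglia, with adjusted permutation p of 0.811, 0.574 and 0.524. With batch means subtracted these became -0.456, -0.319 and -0.310, so the sign turned in each. Fth1 in neurons and Fth1 in oligodendrocytes of the same animal had r = 0.951 (rho 0.890, adjusted permutation p = 2.89e-05), or 0.884 without the 2 farthest animals. Nuclei of one animal share a library, and the ferritin and ribosomal values share a denominator. The part of RNA quality or of cytoplasmic RNA carried with nuclei in this relation was not tested.

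Fth1 was also set against the ribosomal protein sum. Fth1 in oligodendrocytes was 134 ± 20.2 UMIs per 1000 ribosomal protein UMIs with saline (SD, n = 4), 134 ± 26.8 with Malat1 ASO (n = 4), 120 ± 12.9 with anti-TfR:Malat1 (n = 6) and 127 ± 14.6 with OTV:Malat1 (n = 3). In neurons the same ratio was 65.9 ± 9.95, 66.8 ± 3.47, 61.9 ± 10.2 and 71.0 ± 16.03. The group ranges overlapped in both cell types. The ratio did not bring the groups closer everywhere: Fth1 in perivascular macrophages was 75.0 ± 14.5 with saline (SD, n = 4), 93.7 ± 2.37 with Malat1 ASO (n = 4), 77.9 ± 10.0 with anti-TfR:Malat1 (n = 6) and 98.7 ± 10.1 with OTV:Malat1 (n = 3), beside 538, 586, 535 and 717 CPM. The saline animals ran from 58.2 to 92.8, the anti-TfR:Malat1 animals from 65.6 to 92.1 and the OTV:Malat1 animals from 92.6 to 110.3. OTV:Malat1 thus overlapped saline but not anti-TfR:Malat1, and the share of genes without overlap by such a ratio was not computed. The ratio was not tested in these nuclei. Ftl1 in astrocytes had group means of 8.84 to 12.1 per 1000 ribosomal protein UMIs, beside 40.6 to 46.6 CPM.

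**Figure D3:**
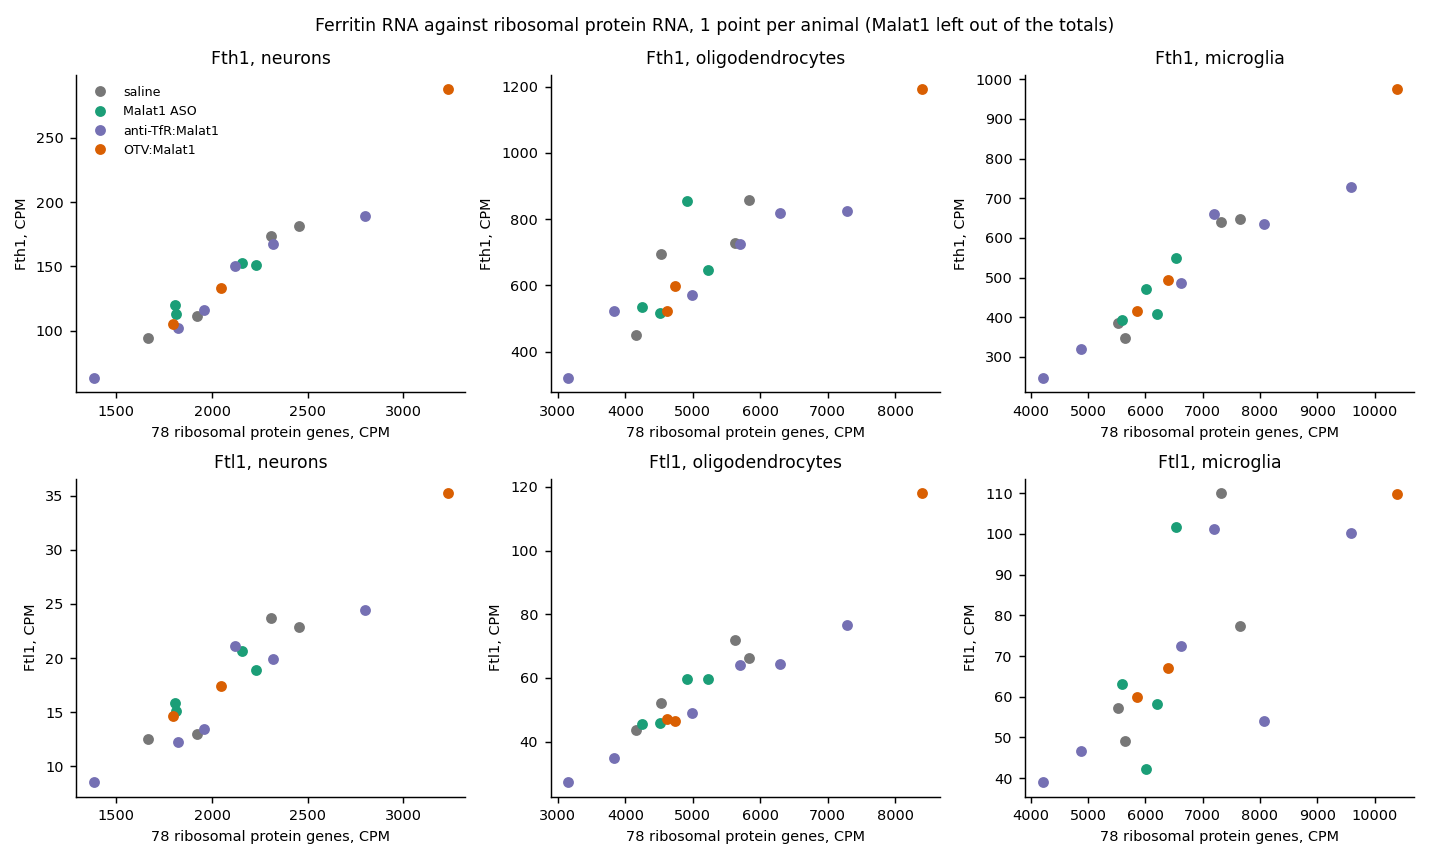
Fth1 (top) and Ftl1 (bottom) in CPM against the sum of 78 ribosomal protein genes in CPM, with Malat1 left out of the totals, in neurons, oligodendrocytes and microglia, 1 point per animal coloured by group. Animals of the 4 groups lie along one rising band in neurons and oligodendrocytes, Ftl1 in microglia is more scattered, and 1 OTV:Malat1 animal lies at the upper right end of each Fth1 panel.

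Ferroportin RNA in microglia was 172, 131, 124 and 145 CPM in the saline animals, 151, 108, 113 and 95.4 CPM with Malat1 ASO, 123 to 153 CPM around a median of 137 CPM with anti-TfR:Malat1, and 175, 123 and 153 CPM with OTV:Malat1. The groups overlapped. The log2 fold change against saline was -0.28 (SE 0.16) with Malat1 ASO, -0.06 (SE 0.14) with anti-TfR:Malat1 and 0.02 (SE 0.17) with OTV:Malat1, and no edgeR adjusted p was below 0.997. For both conjugates the interval of 2 standard errors lay between -0.35 and 0.36. In perivascular macrophages Slc40a1 was 123, 93.0, 259 and 107 CPM with saline and 124, 339 and 135 CPM with OTV:Malat1. These sums held 25 and 35 UMIs in all. Their log2 fold change was 0.64 (SE 0.48, edgeR adjusted p = 1.00), and -0.20 without OTV:Malat1 replicate 2.

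Cp in vascular cells was the member whose groups differed most clearly by level, although it did not pass the test over all genes. The saline animals had 836, 774, 620 and 766 CPM, and the Malat1 ASO animals 592, 500, 393 and 420 CPM. With anti-TfR:Malat1 it ran from 359 through a median of 559 to 780 CPM, and with OTV:Malat1 it was 479, 444 and 491 CPM. Each animal with Malat1 ASO or OTV:Malat1 lay below each saline animal, while anti-TfR:Malat1 overlapped saline. Group means were 749 ± 91.3, 476 ± 89.3, 582 ± 154 and 471 ± 24.7 CPM (SD, n = 4, 4, 6 and 3). The groups did not overlap in 1, 0, 2 and 0 of the 22 pairs in the 4 comparisons, beside shares without overlap of 1.24%, 0.501%, 6.43% and 2.65% among all 57700 pairs, and shares called by edgeR of 0%, 0%, 0.00347% and 0%. The 2 pairs with OTV:Malat1 are Cp in vascular cells and Cp in microglia.

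The log2 fold change of vascular Cp against saline was -0.67 (SE 0.22) with Malat1 ASO, -0.40 (SE 0.20) with anti-TfR:Malat1 and -0.68 (SE 0.24) with OTV:Malat1. The unadjusted edgeR p values were 0.00550, 0.0535 and 0.00944, and the adjusted ones 0.995, 0.999 and 0.868. Exact two-sided permutation of the animals gave p = 0.0286, 0.0667 and 0.0571, where 0.0286 and 0.0571 are the smallest possible for 4 against 4 and 3 against 4. The 2 conjugates differed by -0.28 (SE 0.23, edgeR adjusted p = 0.999), with OTV:Malat1 the lower and an interval of 2 standard errors on each side that crossed 0. Over 27 fits, the main one and its edgeR and DESeq2 alternatives, Cp was lower than in saline in 27 of 27 for each treatment, from -0.82 to -0.60 with Malat1 ASO, from -0.65 to -0.31 with anti-TfR:Malat1 and from -0.81 to -0.52 with OTV:Malat1. These fits reuse the same counts, so their shared sign is no added support. An unadjusted edgeR or DESeq2 p under 0.05 was found in 27, 10 and 27 of them, in the same order. Within batches 1 to 4, with Malat1 left out of the totals, the difference was -0.53, -0.65, -0.67 and -0.89 with Malat1 ASO and -0.78, -0.51, -0.46 and -0.04 with anti-TfR:Malat1. In batches 2 to 4, which hold the OTV:Malat1 animals, it was -0.73, -0.52 and -0.66. All these values are read against the same 4 saline animals.

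The makeup of the vascular nuclei was measured beside this difference. Sums of all 7 fibroblast-like markers ran from 1301 to 2210 CPM in saline, 1546 to 2877 CPM with Malat1 ASO, 1453 to 2266 CPM with anti-TfR:Malat1 and 1484 to 1954 CPM with OTV:Malat1, overlapping between groups. The 7 endothelial markers ran from 1111 to 5486, 1011 to 3966, 1245 to 7873 and 1964 to 4532 CPM in the same order, and the 6 mural markers from 1542 to 2152, 1398 to 2278, 1449 to 2892 and 1912 to 3275 CPM. The ependymal and choroid plexus list set saline apart from 2 groups, and its relation to Cp over the animals was not computed. Its sum ran from 81.8 to 188 CPM in saline, 16.8 to 74.0 CPM with Malat1 ASO, 45.0 to 161 CPM with anti-TfR:Malat1 and 17.5 to 73.8 CPM with OTV:Malat1, so that saline overlapped only anti-TfR:Malat1. Of its 4 genes, 3 were detected, and 133 of the 136 UMIs were of Ttr, the transthyretin gene of the choroid plexus, with Ccdc153 at 0. Ttr was at 81.8 CPM in vascular nuclei, 84.1 CPM in microglia and 63.4 CPM in oligodendrocytes. Mean Ttr was also highest with saline in neurons, oligodendrocytes and microglia, but highest with OTV:Malat1 in astrocytes, with the groups overlapping in each. In oligodendrocytes it was 74.54 CPM with saline, 60.81 with Malat1 ASO, 58.98 with anti-TfR:Malat1 and 60.55 with OTV:Malat1. The 6 oligodendrocyte markers also separated 2 groups, at 858 to 1309 CPM with saline and 1456 to 2102 CPM with OTV:Malat1, as did the 4 precursor markers, at 273 to 351 and 424 to 592 CPM. Of the 5 perivascular macrophage markers, 4 were detected, Cd163 was at 0, and the sum was at most 101 CPM in any animal. With groups ordered saline, Malat1 ASO, anti-TfR:Malat1 and OTV:Malat1, the other lists overlapped between groups. Neuron markers ran from 830 to 1825, 1117 to 2016, 1101 to 1963 and 1035 to 2561 CPM. Astrocyte markers ran from 1909 to 3625, 2360 to 3140, 1540 to 3942 and 2821 to 3104 CPM. Microglia markers were at most 230 CPM in any animal. Red blood cell markers ran from 0 up to 2255, 16.4, 1355 and 4088 CPM. The part of these other cell types in the Cp difference was not tested. Vascular nuclei numbered 65 to 119 per animal in saline, 53 to 86 with Malat1 ASO, 42 to 101 with anti-TfR:Malat1 and 55 to 82 with OTV:Malat1.

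The vascular nuclei were then divided by leading markers. This division was chosen after the vascular values had been seen. In the fibroblast-like-led nuclei Cp was 1012, 1059, 826 and 1215 CPM with saline and 596, 528, 373 and 463 CPM with Malat1 ASO. It ran from 346 to 890 CPM with anti-TfR:Malat1, with 5 of 6 animals below each saline animal, and was 652, 597 and 456 CPM with OTV:Malat1. The log2 differences from saline were -1.08, -0.67 and -0.86, with exact permutation p of 0.0286, 0.0190 and 0.0571, each 0.171 after adjustment over 12 comparisons. The mean share of vascular nuclei led by fibroblast-like markers was 45.7% with saline, 50.1% with Malat1 ASO, 49.2% with anti-TfR:Malat1 and 44.4% with OTV:Malat1. In mural-led nuclei mean Cp was 504, 505, 485 and 484 CPM in the same order, with exact permutation p of at least 0.695 against saline. In endothelial-led nuclei it was 279, 219, 336 and 122 CPM (n = 4, 4, 5 and 3), since anti-TfR:Malat1 replicate 4 had fewer than the 5 nuclei required. The log2 differences from saline were -0.36, 0.02 and -1.20, with exact permutation p of 0.286, 0.968 and 0.0571. The last of these, with OTV:Malat1, was lower than saline in 3 of 3 animals, on 7 UMIs against 26, and has an adjusted p of 0.171 over the 12 comparisons. Whether the 3 kinds of nuclei differ in their response was not tested.

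**Figure D4:**
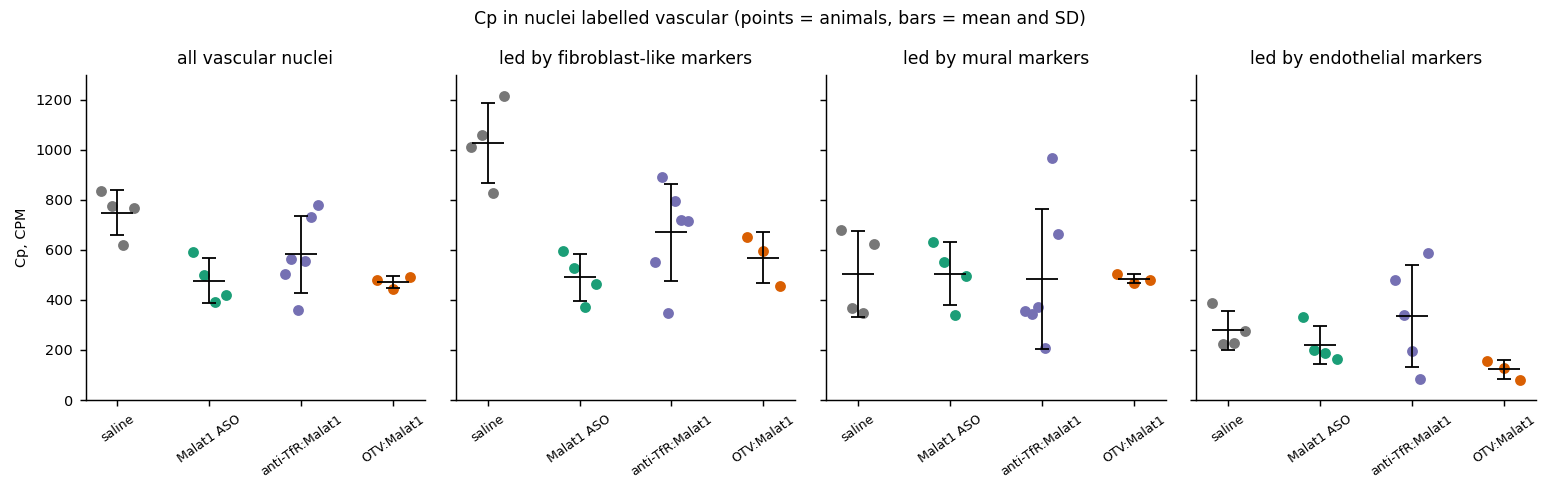
Cp in CPM in all vascular-labelled nuclei and in those led by fibroblast-like, mural or endothelial markers, 1 point per animal by group, with bars for the mean and SD. In fibroblast-like-led nuclei the saline animals lie between 826 and 1215 CPM, above each Malat1 ASO and OTV:Malat1 animal, while the mural panel shows group means between 484 and 505 CPM.

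In the other cell types Cp did not pass the test either. In microglia it was 50.8, 49.5, 49.1 and 39.4 CPM with saline and 55.4, 59.5 and 64.1 CPM with OTV:Malat1, which did not overlap. The log2 fold change was 0.26 (SE 0.25, edgeR adjusted p = 0.973). In perivascular macrophages, mean Cp was 473 ± 146 CPM with saline (SD, n = 4) and 310 ± 112 CPM with anti-TfR:Malat1 (n = 6), a log2 fold change of -0.57 (SE 0.28, edgeR adjusted p = 0.998). It was 363 CPM with Malat1 ASO and 415 CPM with OTV:Malat1, log2 fold changes of -0.36 (SE 0.31) and -0.20 (SE 0.32), so the 3 treated means lay below saline, as in vascular cells. The choroid plexus gene Ttr was at 107 to 129 CPM with saline in these nuclei, 40.3 to 98.5 CPM with Malat1 ASO, 0 to 143 CPM with anti-TfR:Malat1 and 0 to 92.7 CPM with OTV:Malat1, on 8 to 21 UMIs per group. Its part in the Cp difference was not tested. Neuronal Cp was the most tightly measured value of the set. Its log2 fold changes against saline were -0.02, -0.09 and 0.02 with Malat1 ASO, anti-TfR:Malat1 and OTV:Malat1 (SE 0.097, 0.088 and 0.10), and each interval of 2 standard errors lay between -0.27 and 0.23. In astrocytes Cp had 9 to 43 UMIs per group and did not pass edgeR's filter. Of its 89 astrocyte UMIs, 67 lay in cluster 14, which held 4793 of the 4972 nuclei. Without the deposited doublets, 45 UMIs remained. The permutations given next were not repeated on these nuclei. The saline animals had 2.63 to 12.3 CPM, the Malat1 ASO animals 2.47 to 13.6 CPM, the anti-TfR:Malat1 animals 8.59 to 19.5 CPM and the OTV:Malat1 animals 4.94 to 6.79 CPM, so that the 2 conjugates did not overlap. Among the 57700 pairs that passed the filter, 2.65% did not overlap between the conjugates. The share among pairs outside the filter was not computed. By exact two-sided permutation, unadjusted, anti-TfR:Malat1 exceeded saline by 1.01 in log2(CPM + 1) (p = 0.0476), and the difference of OTV:Malat1 from anti-TfR:Malat1 was -1.06 (p = 0.0238, the smallest possible for 3 against 6). Of 144 such permutation tests, for the 6 genes in 6 cell types and 4 comparisons, 5 had a p under 0.05. They are these 2, Cp in vascular cells with Malat1 ASO, and Cp in microglia and Heph in oligodendrocytes for OTV:Malat1 against anti-TfR:Malat1. The 144 include tests that could not pass. For OTV:Malat1 against saline no p below 0.0571 was possible, and some genes had 0 UMIs in both groups compared. The share of such p over all genes was not computed.

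Heph in astrocytes was 29.4, 26.3, 29.3 and 49.0 CPM with saline and 40.3, 52.7, 33.8 and 54.3 CPM with Malat1 ASO. It ran from 34.4 through a median of 47.2 to 73.1 CPM with anti-TfR:Malat1 and was 38.7, 39.5 and 43.0 CPM with OTV:Malat1. Of the 4 saline animals, 3 lay below each treated animal, and saline replicate 4 lay among them. The log2 fold change was 0.45 (SE 0.25) with Malat1 ASO, 0.55 (SE 0.23) with anti-TfR:Malat1 and 0.18 (SE 0.28) with OTV:Malat1, each with an edgeR adjusted p of at least 0.999. Within batches, with Malat1 left out of the totals, the difference of anti-TfR:Malat1 from saline was 0.34, 0.34, 1.26 and -0.07, and that of OTV:Malat1 in batches 2 to 4 was 0.47, 0.33 and -0.24. By the CPM above, the Malat1 ASO animal lay above the saline animal of its batch in each batch. In oligodendrocytes, where Heph had 14 UMIs in all, it was at 0.243 to 0.385 CPM with OTV:Malat1 and 0 to 0.116 CPM with saline. This pair did not pass edgeR's filter, and the share without overlap among such pairs was not computed.

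Hmox1 passed edgeR's filter in neurons alone. Its groups overlapped, at 0.120 to 0.514 CPM with saline and 0.317 to 0.484 CPM with OTV:Malat1, on 68 and 61 UMIs. The log2 fold change of 0.30 (SE 0.43, edgeR adjusted p = 1.00) has an interval of 2 standard errors from -0.56 to 1.17, which holds changes in both directions.

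Oligodendrocytes, where OTV:Malat1 lowered Malat1 most, were compared with neurons of the same animal. For each gene the oligodendrocyte minus neuron difference in log2(CPM + 1) was compared between groups by exact two-sided permutation, 24 tests in all, with Malat1 left out of the totals. Mean Fth1 differences were 2.29 with saline, 2.22 with Malat1 ASO, 2.27 with anti-TfR:Malat1 and 2.17 with OTV:Malat1. The lowest adjusted exact permutation p over the 24 was 0.686, for Heph with OTV:Malat1, where the difference exceeded that of saline by 0.34 and that of anti-TfR:Malat1 by 0.24 on the log2(CPM + 1) scale. It rests on the 14 oligodendrocyte UMIs of Heph.

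The choice of total bears on these comparisons because Malat1 takes many UMIs. With CPM over all UMIs, the median gene was 0.18 higher in log2 with OTV:Malat1 than with saline in oligodendrocytes and 0.11 higher in astrocytes, and 0.05 and 0.01 higher with Malat1 left out. The fitted fold changes given here use TMM scaling, under which the median was near 0.

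Other iron genes, on 3 lists, were read in the same fits. The 12 genes of iron uptake and sensing include Tfrc, for the transferrin receptor, Ireb2 and Aco1, the iron regulatory proteins, and Ncoa4, which carries ferritin to the lysosome. They gave 39 gene and cell type pairs, of which 0 were called in each of the 4 comparisons, with medians of -0.01, 0.02, 0.03 and -0.02. At an unadjusted edgeR p under 0.05 there were 0, 1, 1 and 3 pairs. They were Tfrc in neurons with anti-TfR:Malat1 (-0.18), Fbxl5 in microglia with OTV:Malat1 (0.45 against saline and 0.35 against anti-TfR:Malat1), and Trf in microglia (0.43) and vascular cells (0.92) for OTV:Malat1 against anti-TfR:Malat1. All animals carry the human TfR knock-in, and how it bears on the counts of Tfrc was not tested. The 12 genes of haem handling and of the oxidative stress regulator Nrf2 gave 47 pairs, 0 called in each comparison, with medians of -0.01, -0.02, 0.03 and 0.01 and 1, 0, 1 and 2 pairs at an unadjusted edgeR p under 0.05. The 9 genes of iron use and iron chaperones gave 37 pairs, 0 called, with medians of -0.04, 0.01, 0.07 and 0.01 and 0, 1, 2 and 0 such pairs. Over all 57700 pairs, 1.53%, 2.03%, 2.67% and 3.02% had an unadjusted edgeR p under 0.05. The iron-responsive element of the form searched was found in the 5′ untranslated region of none of the genes on these 3 lists. The 3′ untranslated regions were not searched, so an element there would have been missed.

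Finally, the genes whose pattern over animals and cell types was most like each member were listed. Likeness was Pearson's r of log2(CPM + 1) over 107 sums of 1 animal and 1 cell type, among 14308 genes. These sums share libraries and cell types, so r is a description. Fth1 was most like Actb (0.888), Hsp90ab1 (0.887) and Ppia (0.880), and Ftl1 most like Ndufa13 (0.834), Rpl13 (0.803) and Bri3 (0.796). Slc40a1 was most like Fli1 (0.966) and Abca9 (0.962), and Cp most like Clec2d (0.919), Sp100 (0.880) and Foxp1 (0.868). Heph was most like Gjb6 (0.846), a gap junction gene, Cyp2d22 (0.836) and Gli2 (0.825). For Hmox1 the highest values were lower, with Ms4a14 (0.441), Folr2 (0.428) and Gm43305 (0.416).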

How the data were processed

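The authors deposited a matrix of UMI counts, whole numbers per gene and nucleus per the file headers, with metadata giving animal, cell type label, cluster, doublet call and batch; 12 metadata columns were not used. The submitters' processing notes name Cell Ranger 6.0.1, Seurat 4 and mm10. The deposited doublets (16.81% of nuclei) were kept. Counts were summed per animal and label for animals with 20 or more nuclei. edgeR 4.0.16 (filterByExpr, TMM, glmQLFit, glmQLFTest; R 4.3.3) fitted all 17 animals per cell type, with two-sided p adjusted by Benjamini-Hochberg. Exact permutation p count the smaller tail for both sides and use log2(CPM + 1) with Malat1 left out of the total, except in the divided vascular nuclei. Python 3.11.15 (scipy 1.17.1, pandas 2.3.3) was used for levels, correlations and permutations. The edgeR step was tested on simulated data. Sequences and positions come from GENCODE M21 (GRCm38, the assembly of mm10).

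The members, lists and tests were chosen with earlier results of these data known. The 6 members and Malat1 were always named, together with any listed gene past the threshold and the 3 genes most alike to each member by r, among genes with a mean of 10 CPM or more in a cell type; 1 gene this rule names is not reported here. List genes under an unadjusted p of 0.05 and markers are named beyond that rule. Alternatives were DESeq2 1.42.0, RLE size factors, library sizes without Malat1, unfiltered genes, fits of 2 groups alone, replicate and batch blocks, doublets left out, joined labels and clusters, 1000 or more UMIs, another pseudocount and leaving out each animal. Joining labels and clusters kept the nuclei with the commonest label of their cluster and left out all of cluster 13.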

Additional observations from a re-analysis of the deposited data

Results flagged for a closer look

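Within-group outliers were sought in 66 groups of 4 to 6 animals by Dixon's ratio at the 95% level, which chance passes in about 1 of 20 groups. The 3 that passed it were all in saline animals. Cp in microglia was 39.4 CPM in saline replicate 4, below 49.1, 49.5 and 50.8 CPM in the other 3. Heph in astrocytes was 49.0 CPM in the same animal, above 26.3, 29.3 and 29.4 CPM. Heph in neurons was 0.137 CPM in saline replicate 1, below 0.159, 0.160 and 0.164 CPM in the others. The ratio was applied to groups of 4 to 6 animals only. The OTV:Malat1 group of 3, with the high ferritin of its replicate 2, was therefore not tested in this way.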

How the results depend on the processing

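None of the 6 genes was called under any alternative run. Cp in all vascular nuclei was below saline in each of 27 fits per treatment, which reuse the same counts. Single-gene exact permutation, with no adjustment over genes, passed 0.05 at -0.68 with Malat1 ASO in all vascular nuclei, and at -1.08 and -0.67 with Malat1 ASO and anti-TfR:Malat1 in fibroblast-like-led nuclei. It did not pass for anti-TfR:Malat1 in all vascular nuclei. For OTV:Malat1 it could not pass, since 3 against 4 animals allow no p below 0.0571, the value found in both. In mural-led nuclei the differences were 0.03, -0.17 and 0.0074 with Malat1 ASO, anti-TfR:Malat1 and OTV:Malat1. Endothelial-led nuclei gave -0.36, 0.02 and -1.20 in the same order. Leaving out 1 animal moved Cp in all vascular nuclei from -0.82 to -0.60 with Malat1 ASO, -0.53 to -0.31 with anti-TfR:Malat1 and -0.74 to -0.63 with OTV:Malat1. Fth1 in oligodendrocytes with OTV:Malat1 against saline became -0.0758 per ribosomal protein UMI, a scaling chosen after seeing the data, as was the division of vascular nuclei by markers. Ftl1 in vascular cells with Malat1 ASO became -0.0228 without the filter. The cause of these shifts was not tested.

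Same-numbered animals of different groups correlated with a median r of 0.0328 in neurons and 0.198 in oligodendrocytes, above 0.1 in 9 and 12 of 21 pairs. Differently numbered animals had medians of -0.0082 and -0.0503, above 0.1 in 30 and 29 of 85 pairs. Same-batch animals were above 0.1 in 22 and 20 of 27 pairs. Replicate number and batch partly coincide, and their parts were not told apart. With the replicate block, Fth1 in oligodendrocytes became -0.0869 for OTV:Malat1 against anti-TfR:Malat1 and 0.0971 for anti-TfR:Malat1 against saline, and the block called 1 gene for OTV:Malat1 against saline and 3 for OTV:Malat1 against anti-TfR:Malat1.

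Genes called over all cell types, 2 for OTV:Malat1 against saline and 0 in the other comparisons, changed without the filter: 31 with Malat1 ASO, 4 with anti-TfR:Malat1, 31 with OTV:Malat1 and 18 between the conjugates. For OTV:Malat1 the count was 1 with DESeq2, 1 without doublets, 0 with nuclei of 1000 or more UMIs and 0 with only the 2 groups fitted. Leaving out 1 animal gave 0 to 1 for Malat1 ASO, 0 to 3 for OTV:Malat1 and 0 to 1 for OTV:Malat1 against anti-TfR:Malat1.

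Many differences of oligodendrocytes minus neurons lay near 0, and several changed sign. Some larger ones kept their sign when 1 animal was left out. Slc40a1 was 0.50 for OTV:Malat1 against anti-TfR:Malat1 and -0.32 with anti-TfR:Malat1, on 90 oligodendrocyte UMIs in all. Heph was 0.34 with OTV:Malat1, on 14. With CPM over all UMIs, Cp with OTV:Malat1 became 0.0552, Fth1 with anti-TfR:Malat1 0.0197, Ftl1 for OTV:Malat1 against anti-TfR:Malat1 0.0205 and Heph with Malat1 ASO -9.938e-05. With a pseudocount of 5 CPM, these Ftl1 and Heph values became 0.00949 and -0.000473. Without doublets, Cp with Malat1 ASO became -0.0963 and Hmox1 with anti-TfR:Malat1 -0.0625. With joined labels and clusters these were -0.0627 and -0.119, and Cp for OTV:Malat1 against anti-TfR:Malat1 -0.0362.

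Leaving out 1 animal reversed the sign of the following. Fth1 in oligodendrocytes ran from -0.26 to 0.0338 with Malat1 ASO, -0.27 to 0.00845 with anti-TfR:Malat1, -0.30 to 0.32 with OTV:Malat1 and -0.18 to 0.44 for OTV:Malat1 against anti-TfR:Malat1. Ftl1 in vascular cells with Malat1 ASO ran from -0.26 to 0.31. Slc40a1 in perivascular macrophages ran from -0.13 to 0.53 with Malat1 ASO, -0.20 to 1.03 with OTV:Malat1 and -0.56 to 0.51 for OTV:Malat1 against anti-TfR:Malat1. Among differences of oligodendrocytes minus neurons, Cp ran from -0.0544 to 0.0762 with Malat1 ASO, -0.13 to 0.0031 with anti-TfR:Malat1, -0.17 to 0.0548 with OTV:Malat1 and -0.11 to 0.11 for OTV:Malat1 against anti-TfR:Malat1. Fth1 ran from -0.16 to 0.0430 with Malat1 ASO and -0.0990 to 0.0885 with anti-TfR:Malat1, and Ftl1 from -0.13 to 0.0104 with anti-TfR:Malat1 and -0.11 to 0.0650 for OTV:Malat1 against anti-TfR:Malat1. Slc40a1 with OTV:Malat1 ran from -0.0859 to 0.44, Heph with Malat1 ASO from -0.0687 to 0.0807 and Hmox1 with anti-TfR:Malat1 from -0.0689 to 0.0766. Joined labels and clusters gave no value for vascular cells and perivascular macrophages. Depth limits Hmox1 in each cell type, Heph outside astrocytes, and each gene in perivascular macrophages, where an animal had 23 to 63 nuclei.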
